A study of Mus musculus with 2 samples.

Results

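The cells described here are endoderm-like cells of mouse embryoids, split by how much RNA they held of 4 genes that low oxygen is known to induce, Bnip3, Egln3, Ankrd37 and Pdk1. The high cells are the top 20% and the low cells the bottom 20% of the summed unique molecular identifiers (UMIs, each standing for 1 captured RNA molecule) of these genes over all UMIs of the cell. Each group held 762 of 3814 endoderm-like cells, which in turn were 68.8% of the 5546 cell barcodes of the embryoid library. The series holds 6834 barcodes in 2 libraries, 1 of embryoids and 1 of whole B6C3F1 mouse blastocysts of embryonic day 4.5, made with the BD Rhapsody whole transcriptome kit to compare embryoid cells with the embryo's lineages. The embryoids joined embryonic stem (ES) cells from Lifeact-RFPRuby mice with XTE cells, a line that the study's title calls trophectoderm-like and that came by reprogramming from ES cells carrying Gata6-H2B:venus. ES cells had been kept in serum with LIF, PD0325901 and CHIR99021, and XTE cells in medium with CHIR99021, BMP4, Fgf4, heparin and Activin, before 48 h in aggregation wells and 48 h in repellent plates. High and low cells share all of this, since they come from the same aggregates. No source used here gives a cell's starting line, its position in the aggregate or the oxygen it met, or how many aggregates were pooled.

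Cells sense oxygen through prolyl hydroxylases of the Egln family, which mark the alpha subunits of the hypoxia-inducible factors (HIFs) for destruction by the von Hippel-Lindau protein while oxygen is present. When oxygen is short the HIFs escape this, pair with Arnt and bind DNA at a short core of ACGTG or GCGTG, and their targets move a cell from respiration towards glycolysis, lactate export and vessel growth. Early embryos and cell aggregates can meet low oxygen away from blood or the medium. Primitive endoderm, the embryonic layer whose markers these cells carry, gives rise to the absorptive visceral endoderm and to the parietal endoderm, which lays down a thick basement membrane.

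The upstream sequences of the rule genes and of 2 genes on which the results below turn, the lactate exporter gene Slc16a3 and the calcium-binding protein gene S100g, show where this core stands. Each is the 250 bases before the start site in the RefSeq table for GRCm38.p6, written 5′ to 3′ on the gene's strand, with every ACGTG or GCGTG on either strand in capitals. Where the core is read on both strands, as in CACGTG or CACGCGTG, the matches overlap and each strand counts as 1 match. Pdk1 has 2 entries in the table and the one listed earlier is shown.
Bnip3, chr7:138909507-138909756, minus strand: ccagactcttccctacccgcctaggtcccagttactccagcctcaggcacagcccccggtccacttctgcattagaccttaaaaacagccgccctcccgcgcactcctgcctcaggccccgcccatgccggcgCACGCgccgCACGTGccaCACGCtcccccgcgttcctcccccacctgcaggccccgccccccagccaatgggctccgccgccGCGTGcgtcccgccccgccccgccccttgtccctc
Egln3, chr12:54203875-54204124, minus strand: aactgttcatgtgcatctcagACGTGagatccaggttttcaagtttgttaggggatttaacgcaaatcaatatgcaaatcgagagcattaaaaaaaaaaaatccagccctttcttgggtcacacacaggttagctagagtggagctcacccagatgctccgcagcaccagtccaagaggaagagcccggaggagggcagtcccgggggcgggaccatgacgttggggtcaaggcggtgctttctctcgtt
Ankrd37, chr8:45999851-46000100, minus strand: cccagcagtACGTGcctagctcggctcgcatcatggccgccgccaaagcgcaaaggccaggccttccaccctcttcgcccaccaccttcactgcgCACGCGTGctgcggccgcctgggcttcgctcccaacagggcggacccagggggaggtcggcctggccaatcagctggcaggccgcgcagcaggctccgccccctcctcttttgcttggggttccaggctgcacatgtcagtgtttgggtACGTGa
Pdk1, chr2:71872974-71873223, plus strand: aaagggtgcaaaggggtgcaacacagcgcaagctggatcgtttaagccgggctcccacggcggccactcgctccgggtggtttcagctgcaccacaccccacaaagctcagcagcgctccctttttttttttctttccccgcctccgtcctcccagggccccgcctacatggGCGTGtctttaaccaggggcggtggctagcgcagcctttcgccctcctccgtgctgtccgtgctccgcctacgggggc
Slc16a3, chr11:120948817-120949066, plus strand: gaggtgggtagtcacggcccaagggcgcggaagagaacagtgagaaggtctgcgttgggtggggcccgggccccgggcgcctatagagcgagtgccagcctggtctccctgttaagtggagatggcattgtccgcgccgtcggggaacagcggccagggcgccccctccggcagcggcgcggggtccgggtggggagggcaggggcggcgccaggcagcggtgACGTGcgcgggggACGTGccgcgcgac
S100g, chrX:162964600-162964849, minus strand: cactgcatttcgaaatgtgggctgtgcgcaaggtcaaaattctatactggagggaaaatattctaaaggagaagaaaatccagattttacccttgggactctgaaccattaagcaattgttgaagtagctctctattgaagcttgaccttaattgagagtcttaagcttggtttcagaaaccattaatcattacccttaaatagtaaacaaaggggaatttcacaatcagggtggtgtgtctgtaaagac
By this count Bnip3 held 5 matches, Ankrd37 4, Slc16a3 2, Egln3 1, Pdk1 1 and S100g none. Adm and Egln1, described below and with windows not shown, held 2 each, and neither match of Adm was ACGTG. These genes were picked, so their matches do not speak to the direction of a gene. Over all 27025 upstream windows of the same length in the table, ACGTG stood in 16.6% and either core in 38.6%. Among the 20 genes of glucose uptake and glycolysis listed below, 19 had a window, and 7 of these (36.8%) held ACGTG and 13 held either core. Of the 8509 genes tested between high and low cells, 6384 had a window, and 23.7% of those held ACGTG and 61.4% either core. For them and for the hypoxia target list, with windows for 73.3% of its genes, the check is void, since windows for 80% are needed, so no contrast is drawn with the glycolysis genes. A match is a run of letters and not a bound site.

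The rule fixed the levels of its own 4 genes, which are given as a description. In summed profiles scaled to counts per 1000000 UMIs (CPM), Bnip3, a receptor that marks mitochondria for removal, stood at 1248 CPM in high cells and 113 CPM in low cells. Egln3, an oxygen-dependent hydroxylase and itself a HIF target, stood at 343 CPM in high cells and 15.3 CPM in low cells. Ankrd37, an ankyrin repeat protein, stood at 120 CPM in high cells and 11.7 CPM in low cells. Pdk1, the kinase that shuts off pyruvate dehydrogenase, stood at 72.1 CPM in high cells and 11.5 CPM in low cells. Bnip3 gave 70.9% of the UMIs of the 4 genes over all endoderm-like cells, so the score is largely a Bnip3 score. The score was 1280 to 4069 CPM in high cells, with a median of 1656, and 0 to 300.1 CPM in low cells, with a median of 173, against a median of 689 CPM in all 3814 cells. The 5 cells just inside the high edge lay between 1279.68 and 1280.82 CPM and the 5 just outside between 1276.41 and 1278.14 CPM. At the low edge the 5 inside lay between 298.597 and 300.09 CPM and the 5 outside between 300.12 and 301.159 CPM. A high cell had a median of 9 UMIs of the 4 genes and a low cell 1, and 245 low cells had 0, so the place of a single cell carries large counting error.

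When each rule gene was left out and cells were ranked by the other 3, that gene was still higher in the high cells, as a measure the ranking had not used. Egln3 stood at 221 CPM in high cells and 74.8 CPM in low cells, a log2 ratio of 1.55 (95% interval 1.39 to 1.74). Ankrd37 stood at 81.5 CPM in high cells and 34.9 CPM in low cells, a log2 ratio of 1.20 (0.95 to 1.498). Pdk1 stood at 55.4 CPM in high cells and 31.4 CPM in low cells, a log2 ratio of 0.80 (0.52 to 1.12). Bnip3 stood at 784 CPM in high cells and 461 CPM in low cells, a log2 ratio of 0.76 (0.68 to 0.85), with 57.2% of the high cells kept when it was left out of the ranking. Each gene thus varied with the sum of the other 3 between cells of 1 library. With Egln3, Ankrd37 or Pdk1 left out, that sum was still mostly Bnip3, and 81.9, 89.6 and 92.4% of the high cells were kept. Whether these 3 genes vary with each other apart from Bnip3 was not tested. Intervals here and below are exact binomial intervals of the ratio of summed UMIs. They cover counting error only, and with 1 library there is no replicate, no test and no p-value.

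**Figure D1:**
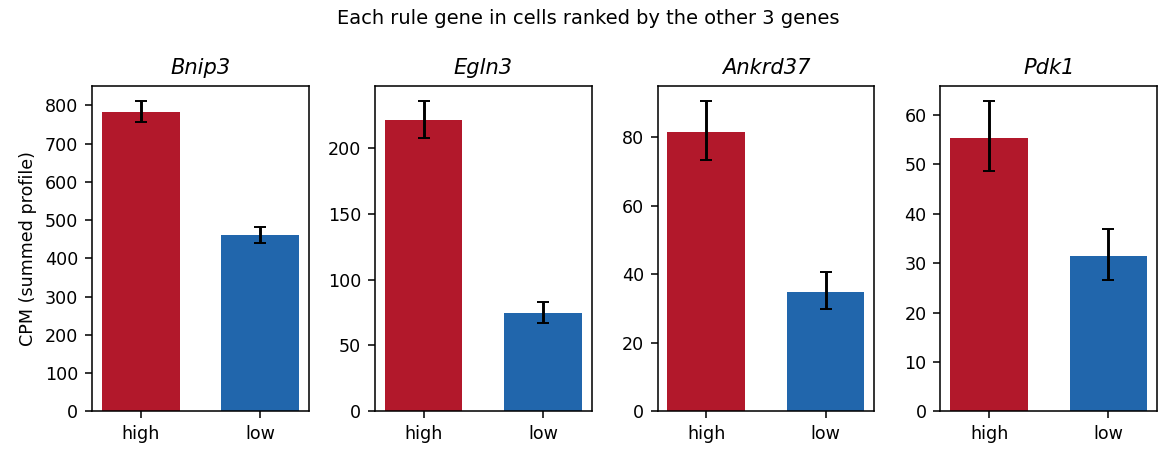
Level of each rule gene in CPM in the 762 high and the 762 low cells when cells were ranked by the other 3 genes. Bars are summed profiles of 1 library and error bars exact 95% counting intervals. Bnip3, for example, stands at 784 CPM in high cells and 461 CPM in low cells.

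High and low cells differed little in depth and in mitochondrial share. The median was 5059 UMIs in high cells and 5193 in low cells, and 1719 genes in high cells and 1740 in low cells after each cell was thinned to 3000 UMIs. High cells were more often shallow: cells were cut into 3 depth classes of equal size by UMI total, which held, low to high, 309, 254 and 199 high cells and 284, 226 and 252 low cells. Mitochondrial genes made up 6.26% of UMIs in high cells and 6.56% in low cells. The endoderm markers of the base rule were present in both groups, with Gata4 at 640 CPM in high cells and 485 CPM in low cells, and Col4a1 at 4844 CPM in high cells and 4179 CPM in low cells. Pdgfra, the fourth marker with Sox17, stood at 265 CPM in high cells and 364 CPM in low cells. Epiblast markers summed to 125 CPM in high cells and 159 CPM in low cells, with Pou5f1 and Fgf4 at 0 UMIs in both. Of the trophectoderm list, which summed to 752 CPM in high cells and 692 CPM in low cells, most came from the keratins Krt8 and Krt18, while Elf5 and Tfap2c each had 1 UMI in high cells and 0 in low cells, and Cdx2 had 18 UMIs in high cells and 45 in low cells. Fibroblast markers summed to 137 CPM in high cells and 153 CPM in low cells, with Postn, Lum, Dcn and Thy1 at 0 in both. Blood markers summed to 70.3 CPM in high cells and 54.3 CPM in low cells, nearly all of it Cd68, and neural markers to 5.25 CPM in high cells and 5.96 CPM in low cells.

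Of 8509 genes with a mean level of 10 CPM or more, 220 were at least 1.5-fold higher in high cells, which is 2.59% of the genes tested. Another 294, or 3.46%, were at least 1.5-fold lower. At 2-fold the numbers were 70 higher and 41 lower, and the median log2 ratio of all genes tested was -0.05. Ratios are of CPM with 1 CPM added to each group and with the 4 rule genes left out of the totals. Scaling by the median of ratios in place of totals gave 271 higher and 230 lower, so which direction holds more genes depends on the scaling. In the paragraphs that follow, a gene called higher or lower is past 1.5-fold, and the values show how far. Each list count is to be read beside these shares, 2.59% higher and 3.46% lower. A short list with none or 1 gene called is near them.

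The known targets of the HIFs outside glycolysis had the highest median of the gene lists measured. Of the 45 genes listed, 34 reached the level needed, and 23 of these were at least 1.5-fold higher and none lower, beside 2.59% and 3.46% of all genes tested. The list's median log2 ratio was 0.76, beside -0.05 for all genes tested, and 33 of the 34 ratios were above 0. With every member that had a UMI the median was 0.71. When cells were ranked without Bnip3 it was 0.50. The members summed to 7301 CPM in high cells and 4288 CPM in low cells. Over 5 score classes of equal size, which start with the low cells and end with the high cells, the sum was 4288, 5015, 5367, 5982 and 7301 CPM, so it climbed at each step. In single cells thinned to 3000 UMIs, the list's UMIs had a median of 21 in high cells, with 17 to 27 in the middle of the range (the quartiles), and a median of 13 in low cells, with quartiles of 9 to 17. The lowest and highest cells had 6 and 53 of these UMIs among high cells, and 3 and 35 among low cells. Single cells of the 2 groups therefore overlapped widely, and the summed profiles differ more clearly than any cell does.

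Adm had the highest ratio of the list. This gene, the precursor of the vessel-widening peptide adrenomedullin, stood at 48.2 CPM in high cells and 3.41 CPM in low cells, from 211 and 16 UMIs, a log2 ratio of 3.48 (3.09 to 4.65). Its level over the score classes, low to high, was 3.41, 6.98, 13.1, 25.2 and 48.2 CPM. Within the 3 depth classes its log2 ratio was 3.82, 3.50 and 3.16, so it was high at every depth. Vegfa, the growth factor that draws in blood vessels, was already well expressed in low cells: it stood at 451 CPM in high cells and 294 CPM in low cells, a log2 ratio of 0.61 (0.51 to 0.71). The other members of the growth factor list differed less. Of its 12 genes tested, Adm and Vegfa were the 2 past 1.5-fold and none was lower, beside 2.59% and 3.46% of all genes tested. The median log2 ratio was -0.03. Flt1, a VEGF receptor, stood at 1378 CPM in high cells and 1027 CPM in low cells. Igf2, the fetal growth factor, stood at 1627 CPM in high cells and 2223 CPM in low cells, a log2 ratio of -0.45 (-0.49 to -0.41).

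Lactate and acid handling split by gene. Slc16a3, which exports lactate from glycolytic cells, stood at 141 CPM in high cells and 31.5 CPM in low cells, 4.38-fold higher. Its log2 ratio was 2.13 (1.90 to 2.43), and 1.56, 1.91 and 2.61 in the depth classes. Its level climbed over the score classes, with 31.5, 46.2, 62.0, 96.2 and 141 CPM. Its relative Slc16a1, which carries lactate both ways, went the other way, at 712 CPM in high cells and 1006 CPM in low cells, a log2 ratio of -0.50. Of the carbonic anhydrases, which buffer pH, Car12 stood at 48.2 CPM in high cells and 21.7 CPM in low cells. Car2 was lower, at 73.7 CPM in high cells and 127 CPM in low cells, and so was Car4, at 228 CPM in high cells and 361 CPM in low cells. Car9, a widely used hypoxia marker in tumours, had 1 UMI in high cells and 0 in low cells, and so could not be compared at this depth. In this list of 9 genes, 8 were tested, 2 were higher and 2 lower, beside 2.59% and 3.46% of all genes tested.

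Among the genes that feed back on the HIFs, Egln1, the main oxygen sensor, stood at 322 CPM in high cells and 105 CPM in low cells, a log2 ratio of 1.61 (1.47 to 1.77). Cited2, which competes with the HIFs for their coactivators, stood at 414 CPM in high cells and 240 CPM in low cells. As a list, the HIF genes and their regulators did not share this pattern. Of 16 genes, 12 were tested, with a median of 0.00, beside -0.05 for all genes tested. Past 1.5-fold was 1 gene, near the shares of all genes tested (2.59% higher and 3.46% lower). That gene was Hif3a, which can act as an inhibitor of the other HIFs, at 22.4 CPM in high cells and 7.66 CPM in low cells, a log2 ratio of 1.43 (0.98 to 2.14). Hif1a stood at 89.2 CPM in high cells and 132 CPM in low cells, a log2 ratio of -0.56, and Epas1, the gene of HIF2 alpha, at 550.5 CPM in high cells and 568 CPM in low cells. Egln2, the family member that is not a known HIF target, stood at 40.9 CPM in high cells and 52.6 CPM in low cells.

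Mitochondrial and stress proteins came next. Fam162a, a mitochondrial protein, stood at 150 CPM in high cells and 51.1 CPM in low cells, a log2 ratio of 1.53. Bnip3l, the relative of Bnip3 with the same role in removing mitochondria, stood at 164 CPM in high cells and 84.5 CPM in low cells. Ak4, a mitochondrial adenylate kinase, stood at 183 CPM in high cells and 90.5 CPM in low cells. Higd1a, which sits with the respiratory chain, stood at 126 CPM in high cells and 65.8 CPM in low cells. None of the 15 general mitophagy and autophagy genes tested was past 1.5-fold, and their median was -0.02. That count is near the shares of all genes tested, 2.59% higher and 3.46% lower. Ero1l, the oxidase that drives disulfide formation in the endoplasmic reticulum, stood at 199 CPM in high cells and 86.2 CPM in low cells. Of 14 endoplasmic reticulum folding genes none was past 1.5-fold, also near those shares, and their median was -0.17. Of 18 amino acid stress genes tested, Stc2, a secreted glycoprotein, and Vldlr, a lipoprotein receptor, were higher and the amino acid transporter Slc7a5 was lower, with a median of -0.24. Stc2 is also in the hypoxia list.

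Matrix enzymes that need oxygen were also in the list. Plod2, which hydroxylates collagen lysines, was the most abundant member, at 1954 CPM in high cells and 1203 CPM in low cells, a log2 ratio of 0.70 (0.65 to 0.75). Loxl2, a collagen crosslinking enzyme, stood at 119 CPM in high cells and 54.3 CPM in low cells. The collagen prolyl hydroxylase subunit P4ha1 differed less, at 585 CPM in high cells and 491 CPM in low cells, a log2 ratio of 0.25. None of the 8 other collagen folding and modifying genes tested was past 1.5-fold, and their median was -0.21. Among 12 basement membrane genes tested, Nid1 was past 1.5-fold, at 42.9 CPM in high cells and 22.8 CPM in low cells, and none was lower. The single member of the hypoxia list tested with a ratio below 0 was Ankzf1, at 9.81 CPM in high cells and 11.9 CPM in low cells, with an interval that spans 0 (-0.89 to 0.32). Members that showed little difference included Wsb1, Inha and Zfp395, all under 0.26 on the log2 scale.

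**Figure D2:**
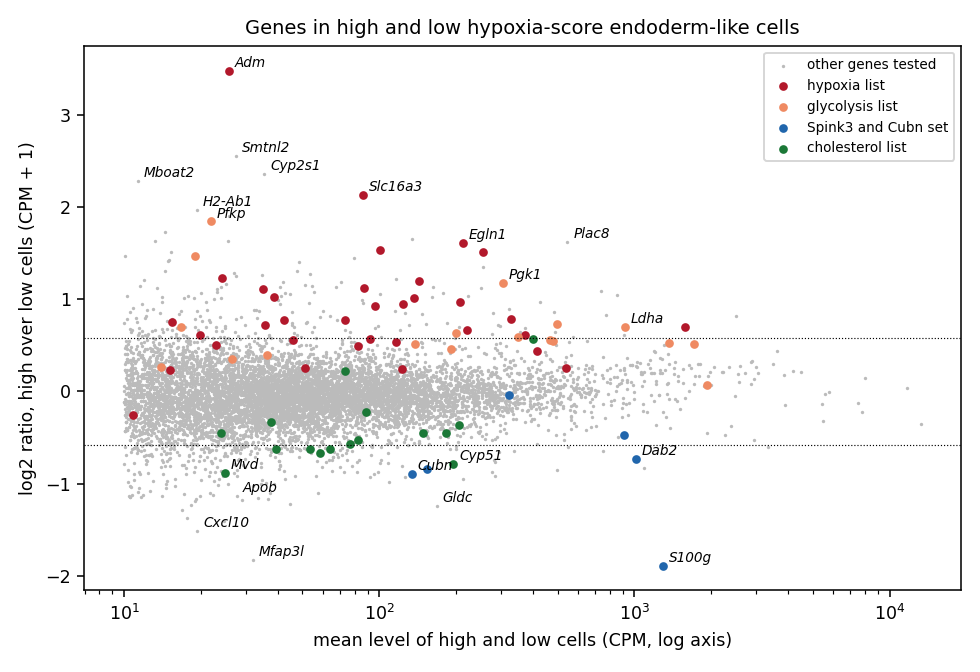
Log2 ratio of high over low cells against mean level in CPM (log axis) for the 8509 genes tested, 1 point a gene, with dotted lines at 1.5-fold. Hypoxia targets (red) and glycolysis genes (orange) lie mostly above 0, and the Spink3 and Cubn set (blue) and cholesterol genes (green) mostly below, with Adm at 3.48 and S100g at -1.89 as the extremes of the named genes.

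Glycolysis genes leaned higher by smaller and more even steps. Of 20 genes, 18 were tested, 8 were at least 1.5-fold higher and none lower, beside 2.59% and 3.46% of all genes tested. All 18 ratios were above 0, with a median of 0.55. The list summed to 10132 CPM in high cells and 7244 CPM in low cells, a log2 ratio of 0.48 (0.46 to 0.50). When cells were ranked without Bnip3 the median was 0.29. In cells thinned to 3000 UMIs the median was 28 glycolysis UMIs in high cells, with quartiles of 23 to 36, and 20 in low cells, with quartiles of 16 to 26. Pgk1, which makes ATP from bisphosphoglycerate, stood at 424 CPM in high cells and 187 CPM in low cells, a log2 ratio of 1.18 (1.06 to 1.30). Eno1, the enolase, stood at 623 CPM in high cells and 374 CPM in low cells. Ldha, which turns pyruvate into lactate, stood at 1133 CPM in high cells and 697 CPM in low cells, and climbed over the score classes with 697, 792, 908, 1011 and 1133 CPM. Ldhb, the other lactate dehydrogenase subunit, stood at 41.5 CPM in high cells and 31.3 CPM in low cells. The largest ratios were in the scarce genes Pfkp and Pfkfb3. Pfkp, the platelet form of phosphofructokinase, stood at 34.7 CPM in high cells and 8.94 CPM in low cells, a log2 ratio of 1.84. The muscle form Pfkm stood at 15.3 CPM in high cells and 12.6 CPM in low cells. Pfkl, the most abundant form, stood at 163 CPM in high cells and 114 CPM in low cells, a log2 ratio of 0.52. The hexokinase genes Hk1 and Hk2 had log2 ratios of 0.70 and 0.64. Pfkfb3, which makes the activator of phosphofructokinase, stood at 28.3 CPM in high cells and 9.58 CPM in low cells. Of the glucose transporters, Slc2a1 stood at 418 CPM in high cells and 278 CPM in low cells, and Slc2a3 hardly differed, at 1964 CPM in high cells and 1870 CPM in low cells, a log2 ratio of 0.07.

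Genes of respiration leaned the other way by small amounts. Of 30 nuclear genes of respiratory chain subunits, all were tested, 27 ratios were below 0 and the median was -0.16, beside -0.05 for all genes. Cycs, cytochrome c, was the one past 1.5-fold, at 47.2 CPM in high cells and 80.0 CPM in low cells, and none was higher. Within the Spink3 and Cubn classes described below, the median of these genes was -0.09. Of 16 tricarboxylic acid cycle genes, 15 ratios were below 0, none was past 1.5-fold and the median was again -0.16, but -0.06 in thinned cells. Ogdh, the oxoglutarate dehydrogenase, had the largest of these, at 116 CPM in high cells and 172 CPM in low cells. The mitochondrial genome did not move as a block. The ribosomal RNA mt-Rnr1 stood at 3190 CPM in high cells and 1806 CPM in low cells, and mt-Rnr2 at 4165 CPM in high cells and 3084 CPM in low cells. The transfer RNA mt-Tp stood at 241 CPM in high cells and 115 CPM in low cells. Of the protein genes, mt-Cytb stood at 11687 CPM in high cells and 14918 CPM in low cells, and mt-Nd6, its neighbour on the opposite strand, at 4868 CPM in high cells and 6077 CPM in low cells. How strand was treated in counting is not given in the sources used here, so reads of neighbouring genes on opposite strands cannot be told apart. The 7 mitochondrial protein genes tested had a median of -0.15, with mt-Nd2 at 0.15.

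Genes of cholesterol synthesis leaned lower. Of 18 genes, 16 were tested, 6 were at least 1.5-fold lower and none higher, beside 3.46% and 2.59% of all genes, and 14 of 16 ratios were below 0, with a median of -0.49. Mvd, which completes the mevalonate branch, stood at 17.1 CPM in high cells and 32.4 CPM in low cells, a log2 ratio of -0.88, and -1.61, -0.28 and -0.89 in the depth classes. Cyp51, the lanosterol demethylase that uses oxygen, stood at 143 CPM in high cells and 247 CPM in low cells, a log2 ratio of -0.79. Other members past 1.5-fold included Fdps, Lss and Nsdhl, with log2 ratios of -0.66, -0.62 and -0.62. The members above 0 were Insig1 and Insig2, which hold back the pathway and are not enzymes of it. Insig1 stood at 478 CPM in high cells and 321 CPM in low cells, a log2 ratio of 0.57. When cells were ranked within 10 classes of the Spink3 and Cubn set described next, the cholesterol median was -0.21.

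High and low cells also differed in genes of endoderm subtype. A set of 7 genes that marks the absorptive, visceral-type endoderm cells of these embryoids, led by Spink3 and Cubn and chosen on this same library, summed to 2594 CPM in high cells and 5063 CPM in low cells. Of its 6 genes tested, 4 were at least 1.5-fold lower and none higher, beside 3.46% and 2.59% of all genes tested. The median was -0.79. When cells were ranked without Egln3 it was -0.50, and without Bnip3 it was -1.15. S100g, a calcium-binding protein of absorptive epithelia, stood at 549 CPM in high cells and 2036 CPM in low cells, a log2 ratio of -1.89 (-1.96 to -1.83) that was the lowest of all genes the naming rule took. Its level over the score classes, low to high, was 2036, 1671, 1571, 1115 and 549 CPM. Its log2 ratio was -1.87 and -1.75 in the middle and deepest depth classes, and lower still in the shallowest. In cells thinned to 3000 UMIs it had a median of 0 UMIs in high cells, with quartiles of 0 to 2 and a highest cell of 45, and a median of 2 in low cells, with quartiles of 0 to 7 and a highest cell of 90. Cubn, the uptake receptor cubilin, stood at 93.6 CPM in high cells and 175 CPM in low cells. Its partner Amn stood at 110 CPM in high cells and 198 CPM in low cells, and the adaptor Dab2 at 763 CPM in high cells and 1270 CPM in low cells. Lrp2, the third receptor of this uptake system, hardly differed, at 318 CPM in high cells and 326 CPM in low cells. Lysosome genes, which digest what such cells take up, had a median of -0.27 over 12 genes, with Ctsd past 1.5-fold, at 262 CPM in high cells and 409 CPM in low cells.

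The same UMIs of the set, counted by cell, show how the cells were spread and are not a second measure of the shift. All 3814 cells were cut into 3 classes of equal size by the share of this set. The lowest class held 52.2% of the high cells and 21.8% of the low cells. The highest class held 16.8% of the high cells and 46.9% of the low cells. High and low cells thus differ in subtype as well as in the score, and values of the 2 cannot be fully told apart. To set subtype level, cells were also ranked within 10 classes of the set's share. The hypoxia median was then 0.61, beside 0.76 without this step, and the glycolysis median 0.56, beside 0.55. Adm had a log2 ratio of 3.27, Slc16a3 1.92 and Egln1 1.24, beside 3.48, 2.13 and 1.61 without this step. S100g, Cubn and Dab2 belong to the set that cut these classes, so this ranking levels them by construction. S100g was then at -0.54, Cubn at 0.16 and Dab2 at 0.03. Outside the set, Ttr was at 0.11 and Apob at 0.49, each with its direction turned round. The visceral endoderm median was 0.11 and the lysosome median -0.15 in this ranking.

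Other endoderm groups had mixed members. Of 10 visceral endoderm genes tested, 3 were lower and none higher, beside 3.46% and 2.59% of all genes tested. Their median was -0.33, but -0.19 over genes of 50 CPM or more and -0.04 in cells without cell cycle UMIs. In those cells Apob was at 0.15 on the log2 scale. Apob, the protein of lipoprotein particles, stood at 16.9 CPM in high cells and 38.3 CPM in low cells, and Ttr, the thyroid hormone carrier, at 195 CPM in high cells and 357 CPM in low cells. Rbp4, the retinol carrier often secreted with Ttr, was at 351 CPM in high cells and 243 CPM in low cells, a log2 ratio of 0.53 (0.42 to 0.64). Of 10 parietal endoderm genes tested, 1 was higher and 3 lower, beside 2.59% and 3.46% of all genes tested. Tfpi, an inhibitor of the clotting pathway, stood at 432 CPM in high cells and 277 CPM in low cells, but its log2 ratio was -0.23 when cells were ranked without Bnip3. F3, the factor that starts that pathway, stood at 354 CPM in high cells and 638 CPM in low cells. Of the primitive endoderm markers outside the base rule, 13 were tested, none was higher, and the 3 lower ones were Dab2, Cubn and Amn. The transcription factors Gata6 and Foxa2 stood at 190 and 126 CPM in high cells and 172 and 109 CPM in low cells. In the Frzb, Sfrp5 and Fst set the Wnt antagonists divided: Frzb stood at 95.2 CPM in high cells and 54.9 CPM in low cells, and Dkk1 at 13.0 CPM in high cells and 36.2 CPM in low cells.

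**Figure D3:**
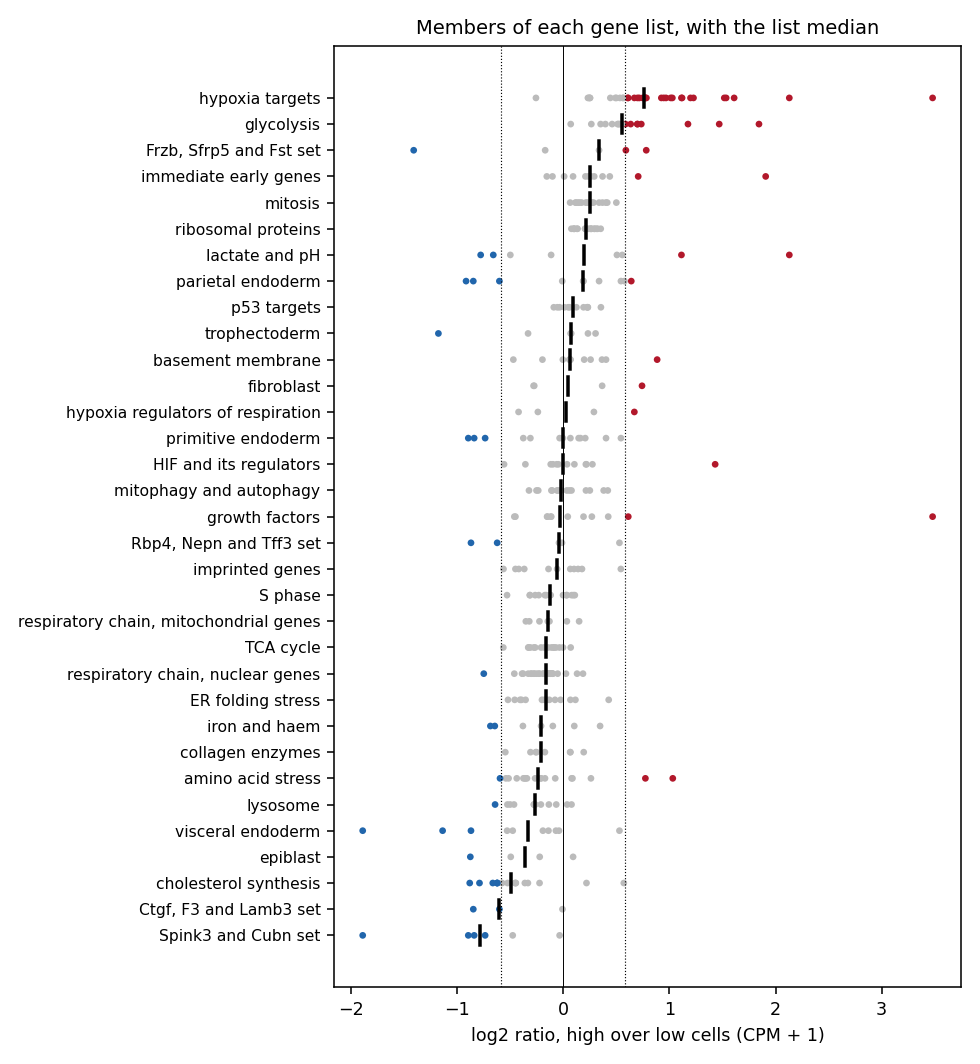
Log2 ratio of high over low cells for each tested member (points) of the gene lists, with the list median as a black bar and dotted lines at 1.5-fold, and lists ordered by their median. Hypoxia targets have the highest median, 0.76, and the Spink3 and Cubn set the lowest, -0.79.

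Some groups differed by little but in 1 direction. All 16 mitosis genes tested had ratios above 0, none past 1.5-fold, with a median of 0.25, but 0.04 in thinned cells, 0.07 when ranked without Bnip3 and -0.12 in cells without cell cycle UMIs. Of these genes Ube2c stood at 578 CPM in high cells and 409 CPM in low cells. DNA replication genes had a median of -0.12 over 15 genes. All 20 ribosomal protein genes had ratios above 0, none past 1.5-fold, with a median of 0.22. Among immediate early genes, which cell handling can raise, Ier3 and Dusp1 were past 1.5-fold and the median of 12 was 0.25. Fos stood at 1371 CPM in high cells and 1011 CPM in low cells. Whether handling had a part in the result was not tested. Targets of p53 had a median of 0.09 over 12 genes with none past 1.5-fold. Imprinted genes had a median of -0.06 over 11 genes. Of 7 iron genes 2 were lower, beside 3.46% of all genes tested. These were Tfrc and Slc40a1, which bring iron into and out of the cell.

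Outside the 2 leading lists, the 15 genes with the highest ratios and the same direction in every depth class began with Smtnl2, a smoothelin-like protein, at 47.5 CPM in high cells and 7.24 CPM in low cells, a log2 ratio of 2.56. Cyp2s1, a cytochrome P450, stood at 60.0 CPM in high cells and 10.9 CPM in low cells. H2-Ab1, a chain of the class II antigen-presenting complex, stood at 31.3 CPM in high cells and 7.24 CPM in low cells. Plac8 was the most abundant of the 15, at 824 CPM in high cells and 267 CPM in low cells, a log2 ratio of 1.62 (1.53 to 1.72). Wnt5a, a Wnt ligand that acts mostly without beta-catenin, stood at 15.3 CPM in high cells and 4.90 CPM in low cells, and Sap30, a subunit of the Sin3 deacetylase, at 39.0 CPM in high cells and 11.9 CPM in low cells. The others were Mboat2, Ier3, Ntrk2, Prelid2, Stk32b, Flrt2, Arhgap29, Hif3a and Parm1, with log2 ratios from 1.42 to 2.28.

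Below S100g, the 15 lowest genes held Mfap3l, at 13.5 CPM in high cells and 50.2 CPM in low cells, a log2 ratio of -1.82 (-2.34 to -1.48). Gldc, the decarboxylase of the glycine cleavage system, stood at 99.5 CPM in high cells and 237 CPM in low cells, a log2 ratio of -1.24 (-1.42 to -1.09). Cxcl10, a chemokine induced by interferon, stood at 9.59 CPM in high cells and 29.2 CPM in low cells. Igf1 stood at 10.5 CPM in high cells and 26.0 CPM in low cells, and Fgfr2, a receptor for fibroblast growth factors, at 22.1 CPM in high cells and 50.9 CPM in low cells. The lysosomal enzymes Gusb and Dpp7 were in this group too, at 11.2 and 20.3 CPM in high cells and 26.8 and 46.6 CPM in low cells. Others were Dkk1, Gjb2, Vps33a, Slc22a23, Tspan8 and Bysl, with log2 ratios from -1.41 to -1.15.

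**Figure D4:**
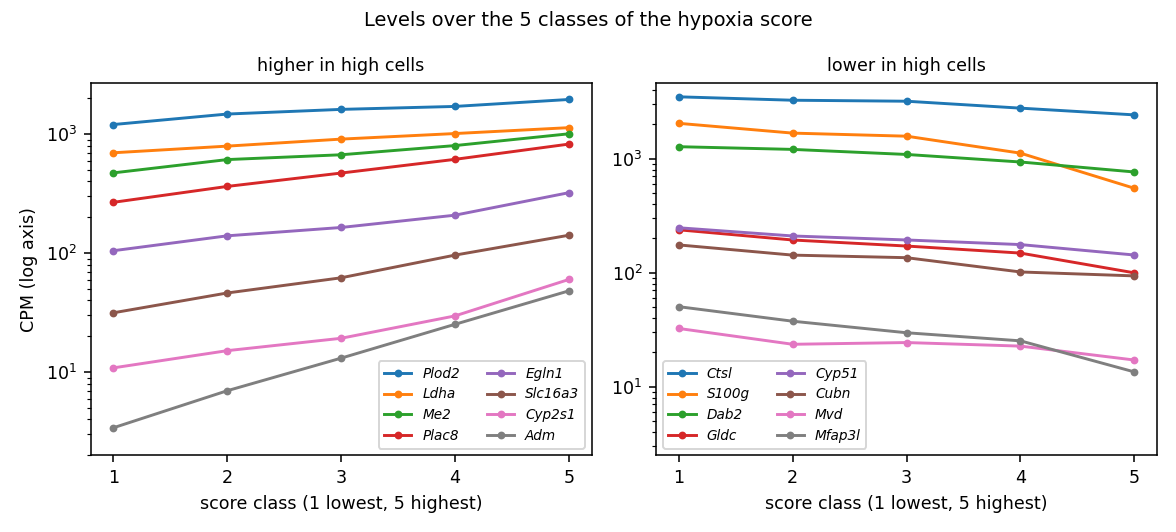
Level in CPM (log axis) of 8 genes higher in high cells (left) and 8 genes lower in them (right) over the 5 score classes of cells, from the lowest (1) to the highest (5). Adm climbs and S100g drops at each class.

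Across the 3814 cells thinned to 3000 UMIs, the genes whose counts went most closely with the score were Me2, Gpx3, mt-Rnr1, Plac8, Plod2, Egln1, Ccnd2, Ldha, Anxa2 and Slc16a3, with Spearman correlations of 0.183 to 0.247. The correlations are weak, rest on sparse counts of cells that share 1 library, and only order the genes. Me2, a mitochondrial malic enzyme, stood at 1006 CPM in high cells and 472 CPM in low cells and climbed over the score classes with 472, 611, 670, 801 and 1006 CPM. Gpx3, a secreted glutathione peroxidase, stood at 1155 CPM in high cells and 557 CPM in low cells. Ccnd2, cyclin D2, stood at 368 CPM in high cells and 143 CPM in low cells. At the other end S100g had the lowest correlation, at -0.222, followed by mt-Cytb, the protease gene Ctsl, and Emb, a partner of lactate carriers, which stood at 785 CPM in high cells and 1392 CPM in low cells.

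RNA of the rule genes was not confined to endoderm-like cells. Their summed level was 802 CPM in the 3814 embryoid endoderm-like cells. It was 515 CPM in 87 embryoid cells with epiblast markers and 930 CPM in 92 embryoid cells with fibrillar collagen. The last were picked with no limit on endoderm markers, so they may carry those too. In the embryoid cells with epiblast markers, Bnip3, Egln3 and Ankrd37 were lower, at 183, 60.4 and 41.4 CPM. They stood at 569, 130 and 62.1 CPM in the endoderm-like cells. Pdk1 was higher, at 230 CPM against 41.6 CPM. In the blastocyst library the summed level was 61.9 CPM in 218 cells picked by the same endoderm rule. It was 169 CPM in 248 blastocyst cells with epiblast markers. The median depth was 9273 UMIs in the blastocyst endoderm-like cells against 5439 in those of the embryoids. The 2 libraries are 1 sample each and differ in every step of culture, so no test of this difference was possible. In the blastocyst, 147 of the 218 cells, or 67.4%, had 0 UMIs of the 4 genes, so its low group of 43 cells was drawn from ties. Between 43 high and 43 low blastocyst cells 13.6% of 8037 genes were past 1.5-fold higher and 13.4% lower, far larger shares than in the embryoids. The hypoxia median there was 0.62 over 28 genes, with 16 higher and 3 lower, and stayed 0.62 with Slc16a3 set at a floor of 3 UMIs in low cells. With the cells ranked without Bnip3 it was 0.05, in thinned cells 0.24, and 0.33 with ties taken from the other end. The glycolysis median was 0.89. Egln1 had 61 UMIs in high blastocyst cells and 30 in low ones, Slc16a3 14 in high and 0 in low ones, and Adm 0 in both. Trophectoderm genes also differed there, with 4 of 5 higher, Krt18 at 26 UMIs in high cells and 3 in low cells and Dppa1 at 18 in high cells and 0 in low cells. Their part in the blastocyst values was not tested. S100g, at 21 UMIs in high blastocyst cells and 22 in low ones, had no difference detectable at this depth.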

How the data were processed

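The deposited files give raw UMI counts per gene symbol and barcode. Per the submitters' processing notes, reads were handled with STAR 2.7.1a, featureCounts 1.6.4 of Subread, UMI-tools 1.0.1 and bcl2fastq 2.19.1.403 on build mm10. No source used here gives settings, gene annotation or cell calling. Embryoid barcodes with at least 3000 UMIs, 500 genes and a mitochondrial share of 1 to 25% were kept (4262), then those with at least 5 UMIs of Gata4, Sox17, Pdgfra and Col4a1 (3914), under 5 of Tdgf1, Sox2, Utf1 and Trh (3893), under 5 of Vim (3818) and under 5 of Col1a1, Col1a2 and Col3a1 (3814). Doublets were not called or removed, and 1 alternative left out the 5% of cells with the most UMIs. The 2 libraries share 9 barcode sequences, of which 7 are embryoid cells used here.

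Counts were summed over the 762 cells of each group (4381635 UMIs in high cells and 4697197 in low cells, without the 4 rule genes) and scaled to CPM. The members, the gene lists and the alternatives were chosen with earlier results of these data known, and the absorptive and other endoderm sets were drawn from these same cells, so they are not independent evidence. The genes the text may name are the measured hypoxia and glycolysis genes, the 15 highest and 15 lowest ratios with 1 direction in every depth class, up to 4 largest ratios of each other list and the 10 closest to the score, together with genes picked for their role or after their values were seen. Some of these genes are described with their values, others are covered by counts and ranges, and a few are not reported here. Upstream sequences are from RefSeq. Python 3.11.15 was used with pandas 2.3.3, scipy 1.17.1, matplotlib 3.10.9 and numpy 2.4.6. The ratios and intervals were tested on simulated summed counts that held counting error only, with no spread between cells.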

Additional observations from a re-analysis of the deposited data

Results flagged for a closer look

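Cholesterol synthesis genes went opposite ways in the 2 libraries when the same rule split the endoderm-like cells of each. Their median log2 ratio of high over low cells was -0.49 in the embryoids, over 16 genes tested, and 0.51 in the blastocysts, over 15 genes tested. The difference was not tested, since each library is 1 sample. The blastocyst value rests on 43 cells in each group, with the low group drawn from cells tied at 0 UMIs of the 4 rule genes.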

How the results depend on the processing

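Results were recomputed under 22 other settings, except that the ratios of the left-out rule genes were not run with a rule gene dropped from the ranking. Of these settings, 2 (ranking within 10 classes of the Spink3 and Cubn set, and a score over UMIs without mitochondrial genes) were added after seeing the data. The hypoxia median, 0.76, stayed above 0 in all, between 0.50 and 1.09, with 1.086 for the top and bottom 10% and 0.4994 for a ranking without Bnip3, where the glycolysis median was 0.2946. The counts of 220 higher and 294 lower genes moved to 400 and 585 with 10% of cells at each end, 146 and 160 with 30%, 134 and 122 with 10 CPM added, 1092 and 1130 with no filter on level, 81 and 75 at 50 CPM or more, and 485 and 642 in cells without cell cycle UMIs, with 179 lower genes within Spink3 and Cubn classes. The mitochondrial log2 ratio, -0.07, was -0.02763 with thinning, -0.09329 within 10 classes of UMI total, -0.07896 with the lower UMI minimum, -0.09707 at 5000 or more, -0.1122 with 10% and -0.04677 with 30% of cells, -0.05257 without Bnip3, -0.07761 without Egln3, -0.03768 without cell cycle UMIs and -0.04197 with the score over UMIs without mitochondrial genes. The smallest ratio among the left-out rule genes, 0.76, was 0.5289 with thinning, 0.8618 at 5000 UMIs, 0.8476 with 10% and 0.6704 with 30% of cells, 0.6596 with 10 CPM added, 0.6731 without cell cycle UMIs and 0.616 within Spink3 and Cubn classes. The blastocyst hypoxia median, 0.62, ranged from 0.05 to 0.74. Some settings cannot turn a gene's direction, namely those that add 0.1 or 10 CPM or change the filter on level. Taking ties from the other end cannot do so either, since it left the same embryoid cells in each group. Of 102 single genes past 1.5-fold, 92 kept their direction under every setting. Those that turned round were Col5a1 with thinning (-0.3382), Ppp1r3c (-0.1541), Tfpi (-0.2317) and Nepn (0.07684) without Bnip3, Sfrp5 without Egln3 (-0.04919), Gbe1 (-0.1423) and Apob (0.1459) without cell cycle UMIs, and Cubn (0.1582), Dab2 (0.02652), Ttr (0.1124) and Apob (0.4871) within Spink3 and Cubn classes. Cubn and Dab2 belong to the set that cut those classes, so that setting levels them by construction. For the other genes the cause was not tested. No paired analysis was possible because each library is 1 sample and high and low cells come from the same library.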
